A study of Mus musculus with 41 samples.

Results

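The genes described here are 9 transcription regulators of the thymic epithelium: Foxn1, Trp63, Pax1, Eya1, Tbx1, Grhl2, Elf3, Hopx and Hoxa3. They were taken by name and not by a rule on their values, though earlier results of these data were known when they were chosen. Each was read from the probe of highest mean among the probes listed for it. Of the 9 genes, 8 had a probe, with 13 probes in all, among 13283 genes with a probe in the whole table. Hoxa3 had no probe and was not analysed here. A gene was tested in a fraction when at least 1 group mean lay above 6.73, the median of all log2 values. By this rule 7 members were tested in thymic epithelial cells (TEC) and 2 in the other stroma (nonTEC).

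The thymic epithelium arises from the pharyngeal pouches under a network in which Hoxa3, Pax1, Eya1 and Tbx1 pattern the pouch, Tbx1 being required for pouch formation while its forced expression holds back Foxn1. Foxn1 is the forkhead factor that drives differentiation of TEC and maintains the organ after birth. Trp63 encodes p63, which sustains the self-renewal of basal and thymic epithelium. Grhl2 keeps up junction and other epithelial genes, Elf3 is an ETS factor of differentiating epithelia, and Hopx is an atypical homeodomain protein that does not bind DNA itself. The thymus shrinks with age, and removal of androgen by castration is followed by regrowth, so these regulators were followed through both.

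RNA was measured on 41 Illumina arrays of 14 groups from the thymus of male C57Bl/6 mice. TEC (CD45-, EpCAM+) were sorted from middle-aged mice of 9 to 12 months and young mice of 5 to 6 weeks, neither operated on, and from castrated and sham-castrated mice of 9 to 12 months at day 4, 7 or 20 after surgery, which gave 8 groups of 3 arrays. NonTEC (CD45-, EpCAM-) came from the same kinds of mice without day 20, in 6 groups of 3 arrays, except sham at day 7 with 2. The gate defines TEC as a mixture of cortical and medullary cells, and the labels do not say whether arrays came from separate animals or from pools, so every p-value here covers the spread among arrays and no more. In such bulk samples a lower value can come from fewer cells of a type or from less RNA per cell, and these cannot be told apart.

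The fractions carried most markers of their labels, though the cortical markers overlapped between them. Krt8, a keratin of all TEC, lay between 12.73 and 13.65 (log2 intensity, as all values here) in TEC and between 7.02 and 10.74 in nonTEC, while Pdgfra, a fibroblast receptor, lay between 4.78 and 9.11 in TEC and between 12.16 and 13.32 in nonTEC. Krt18, Krt5, Krt14, Cdh1 and Aire were also higher in every TEC array than in any nonTEC array. The cortical genes overlapped. Prss16 lay between 4.52 and 8.91 in TEC and between 4.82 and 7.33 in nonTEC. Ccl25 lay between 11.02 and 13.14 in TEC and between 8.03 and 12.01 in nonTEC. Psmb11 lay between 5.34 and 8.43 in TEC and between 4.64 and 5.49 in nonTEC. Epcam itself had no value. Some arrays stood apart. The 6 TEC arrays of day 20 lay at 0.277 to 0.36 on the first principal component of TEC, with no other array above 0.022. Array 3 of sham at day 4 in TEC had mean thymocyte markers of 10.11, against 7.08 and 7.14 in the other arrays of its group, and mean fibroblast markers of 8.09, against 6.51 and 6.56. That array, middle-aged array 3 and castrated day 4 arrays 2 and 3 were left out together in an alternative chosen after seeing the data.

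In TEC the brightest member was Trp63, whose highest group mean stood at the 99th percentile of all single probe values of the TEC arrays. Elf3 followed at the 90.3rd percentile by its own highest group mean, then Eya1 and Hopx at the 86.3rd, Pax1 at the 82.6th, Grhl2 at the 81.2nd and Tbx1 at the 55.6th. These percentiles set probes beside each other and do not rank the amounts of RNA. Foxn1 was too dim, with a highest group mean of 5.81, at the 35.6th percentile. The single Foxn1 probe read 5.04, 4.52 and 4.73 in middle-aged TEC and 5.25, 5.07 and 5.31 in young TEC, and no array of any TEC group went above 5.86. These values sit near the floor of the arrays, and say nothing firm about the level of this factor.

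Promoter sequences from RefSeq (mouse build GRCm38.p6, windows of 300 bases around an annotated start) were held for Pax1, Tbx1, Hopx, Elf3, Foxn1 and Hoxa3. The 6 windows of 4 members that passed a test are shown, 5′ to 3′ on the gene's own strand, since these members moved in different directions between the groups. Capitals mark matches on either strand. The first motif searched was CCAAT, the core of the box bound by NF-Y, which reads ATTGG on the opposite strand. The second was AACCGG, the core bound by Grainyhead factors such as Grhl2, which reads CCGGTT on the opposite strand. CCAAT was in 37.4% and AACCGG in 6.83% of 32851 mouse promoters of the same length.
Pax1, chr2:147364744-147365043, plus strand: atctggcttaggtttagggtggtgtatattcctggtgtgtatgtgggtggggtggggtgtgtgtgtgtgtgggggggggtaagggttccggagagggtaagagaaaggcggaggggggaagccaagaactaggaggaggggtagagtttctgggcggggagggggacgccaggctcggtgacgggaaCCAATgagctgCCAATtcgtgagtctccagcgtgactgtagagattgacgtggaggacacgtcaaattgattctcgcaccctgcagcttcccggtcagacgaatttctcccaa
Tbx1, chr16:18588850-18589149, minus strand: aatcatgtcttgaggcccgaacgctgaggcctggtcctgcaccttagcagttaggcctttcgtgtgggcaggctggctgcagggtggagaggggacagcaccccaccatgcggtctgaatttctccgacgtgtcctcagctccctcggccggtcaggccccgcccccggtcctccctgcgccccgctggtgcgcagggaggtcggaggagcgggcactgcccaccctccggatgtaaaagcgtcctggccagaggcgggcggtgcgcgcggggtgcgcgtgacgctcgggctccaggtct
Tbx1, chr16:18590622-18590921, minus strand: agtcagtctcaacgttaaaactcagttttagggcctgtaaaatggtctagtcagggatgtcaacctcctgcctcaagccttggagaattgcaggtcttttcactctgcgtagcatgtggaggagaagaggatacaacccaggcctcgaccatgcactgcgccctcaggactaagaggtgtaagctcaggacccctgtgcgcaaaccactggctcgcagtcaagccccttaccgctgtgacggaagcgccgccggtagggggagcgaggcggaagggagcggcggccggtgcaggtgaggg
Hopx, chr5:77095218-77095517, minus strand: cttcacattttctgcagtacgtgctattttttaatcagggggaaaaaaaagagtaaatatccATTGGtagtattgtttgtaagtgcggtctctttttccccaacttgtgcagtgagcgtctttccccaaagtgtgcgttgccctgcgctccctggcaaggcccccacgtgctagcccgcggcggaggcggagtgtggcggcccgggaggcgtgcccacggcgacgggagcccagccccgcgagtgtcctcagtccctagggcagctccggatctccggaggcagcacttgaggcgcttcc
Hopx, chr5:77115074-77115373, minus strand: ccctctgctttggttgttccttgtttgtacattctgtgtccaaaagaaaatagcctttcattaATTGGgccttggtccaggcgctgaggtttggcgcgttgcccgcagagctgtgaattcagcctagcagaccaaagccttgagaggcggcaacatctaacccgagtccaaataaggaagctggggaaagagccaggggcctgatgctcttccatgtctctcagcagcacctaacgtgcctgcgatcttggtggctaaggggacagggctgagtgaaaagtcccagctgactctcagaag
Elf3, chr1:135258423-135258722, minus strand: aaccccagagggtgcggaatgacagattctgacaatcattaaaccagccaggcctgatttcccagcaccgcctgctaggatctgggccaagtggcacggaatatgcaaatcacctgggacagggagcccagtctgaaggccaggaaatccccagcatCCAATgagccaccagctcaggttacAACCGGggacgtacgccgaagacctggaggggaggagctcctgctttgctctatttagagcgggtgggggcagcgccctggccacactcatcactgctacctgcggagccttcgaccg

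The Pax1 window held 2 matches to CCAAT, and each Hopx window held 1. The Elf3 window held 1 match to CCAAT and 1 to AACCGG, the only match to the latter among the windows shown, and the matches did not overlap. Neither Tbx1 window held either motif. A match is a string of letters in the window, and no binding was measured in these data.

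Ageing of TEC was followed by comparing middle-aged with young unoperated mice. Tbx1, Trp63 and Eya1 were higher in middle-aged TEC, Hopx was lower, and Pax1, Grhl2 and Elf3 did not pass the test. Thus 4 of 7 members passed, where 18.8% of 8195 genes tested did so (11.9% higher and 6.88% lower). With the spread taken from the 6 compared arrays only, none of the 4 passed, at adjusted p of 0.0915 for Tbx1, 0.144 for Hopx, 0.194 for Trp63 and 0.239 for Eya1 in limma.

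Tbx1, the T-box factor of the pouch, read 6.93, 6.81 and 7.46 in middle-aged TEC and 5.30, 5.54 and 5.71 in young TEC. The groups did not overlap, and every young array lay below 6.73, the level taken as dim, so the difference may be understated. The difference was 1.55 ± 0.28 (log2 ± SE, as all differences here), 2.93-fold, with an adjusted p of 0.00114 in limma. This was the largest rise among the members with age, in a gene that passed the filter through its middle-aged and some operated groups.

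Trp63 read 12.29, 12.66 and 11.45 in middle-aged TEC and 11.22, 11.14 and 11.28 in young TEC. Eya1, a transcriptional coactivator and phosphatase of the pouch network, read 8.69, 8.81 and 7.75 in middle-aged TEC and 7.48, 7.62 and 7.62 in young TEC. In both genes middle-aged array 3 lay closest to the young arrays without overlapping them. Trp63 differed by 0.92 ± 0.22 (adjusted p = 0.00729 in limma). Eya1 differed by 0.84 ± 0.21 (adjusted p = 0.0097), and without middle-aged array 2 by 0.64 (adjusted p = 0.0559). Its 3 probes had the same sign, at 0.84, 0.47 and 0.21 from the brightest to the dimmest, and the mean of all its probes did not pass (0.51, adjusted p = 0.178).

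Hopx read 7.75, 5.67 and 7.93 in middle-aged TEC and 9.31, 9.18 and 9.36 in young TEC. All middle-aged arrays lay below all young ones, and middle-aged array 2 lay furthest down. The difference was -2.17 ± 0.69, 4.49-fold (adjusted p = 0.0343 in limma). Without that array it was -1.44 (adjusted p = 0.173), and the call was also lost without any 1 of the young arrays, at adjusted p of 0.0741 to 0.0836.

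Pax1, the paired-box factor of the pouch, read 9.05, 8.08 and 9.13 in middle-aged TEC and 8.04, 7.97 and 8.22 in young TEC, and the groups overlapped (difference 0.68 ± 0.40, adjusted p = 0.236). Grhl2 read 7.94, 7.64 and 8.34 in middle-aged TEC and 7.55, 7.30 and 7.56 in young TEC, which did not overlap, at a difference of 0.50 ± 0.28 (adjusted p = 0.209 in limma). Elf3 read 9.81, 9.80 and 10.52 in middle-aged TEC and 10.03, 10.12 and 10.26 in young TEC, at a difference of -0.09 ± 0.17 (adjusted p = 0.735 in limma). Pax1 passed at 0.73 (adjusted p = 0.039) when its probes were averaged.

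**Figure D1:**
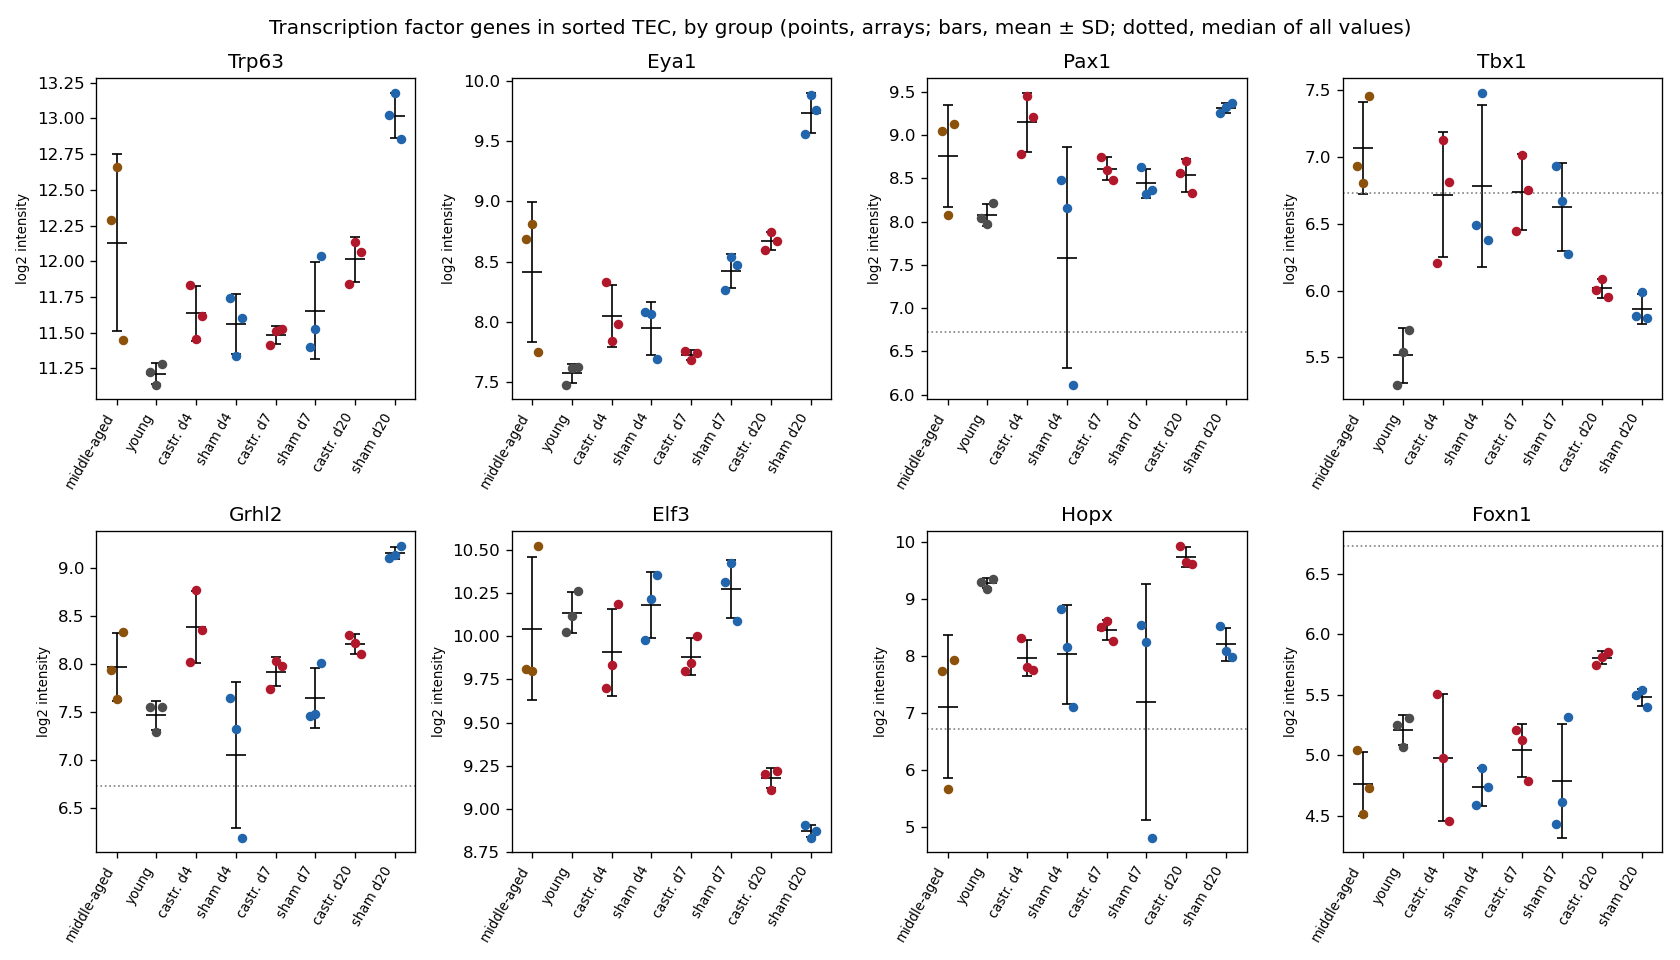
Log2 intensity of the main probe of each member in the 8 TEC groups (points, arrays; bars, mean ± SD, n = 3; dotted line, 6.73, the median of all values), on vertical scales that differ between panels. Trp63 and Eya1 peak in sham TEC of day 20 (group means 13.02 and 9.73), Elf3 is lowest there (8.87), Tbx1 is lowest in young TEC (5.52), and all Foxn1 points lie below the dotted line.

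Genes linked to the members were counted beside them, where 11.9% of all genes tested rose with age in TEC and 6.88% fell. Of 13 tested genes of Foxn1 targets and cortical function, 2 rose with age in TEC and none fell (median difference 0.38, against 0.01 over all genes tested): Cxcl12, a chemokine that holds thymocyte progenitors, by 1.49 (adjusted p = 0.0217), and Cd274, encoding PD-L1, by 1.001 (adjusted p = 0.0101 in limma). None of 12 tested p63 targets and basal epithelial genes and none of 12 Grhl2 targets and junction genes passed. Of 9 tested genes of the pouch network 2 rose, Bmp4 by 2.29 (adjusted p = 0.000484) and Isl1 by 0.75 (adjusted p = 0.0231 in limma). Bmp4 is a signal that acts on the Foxn1 domain, and Isl1 is a LIM homeodomain factor. Bmp4 was lower in TEC than in nonTEC of unoperated mice, as given below. Mean fibroblast markers stood at 6.46, 6.51 and 7.32 in middle-aged TEC and at 6.48, 6.43 and 6.58 in young TEC. The part of other cells in the rise of Bmp4 was not tested. Of 8 tested paralogs of the members Hoxa4 alone passed, at 1.14 (adjusted p = 0.00681).

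Of all genes tested 6.88% fell and 11.9% rose with age in TEC. Of 11 tested keratins and cornification genes, which mark terminally differentiated medullary cells, 4 fell and none rose (median -0.999). Among them were Lor, encoding loricrin of the cornified envelope, at -1.55 (adjusted p = 0.029), and Krt13, a keratin of stratified epithelia, at -0.999 (adjusted p = 0.00564 in limma). Of 12 tested medullary regulators 2 fell, Cd40 by -0.64 (adjusted p = 0.0052) and Tnfrsf11a, encoding RANK, by -1.12 (adjusted p = 0.0378). Mean immediate early genes, a sign of handling or of signalling, stood at 11.59, 11.38 and 11.64 in middle-aged TEC and at 11.04, 10.92 and 10.63 in young TEC. Of 4 tested pan-leukocyte markers 3 were higher and 1 lower in TEC than in nonTEC of unoperated mice (median 1.36). Whether they mark leukocytes in TEC was not tested. Mean pan-leukocyte markers stood at 10.44, 10.03 and 10.99 in middle-aged TEC and at 11.45, 11.37 and 11.35 in young TEC. Of 6 tested pericyte and smooth muscle markers 4 fell and none rose with age in TEC (median -1.02). In unoperated mice 4 of these 6 were higher and 2 lower in TEC than in nonTEC. The part of all these genes in the differences of the members was not tested.

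At day 4 after surgery Pax1 and Grhl2 were higher in castrated than in sham TEC, and no other member passed, so that 2 of 7 did where 3.62% of genes tested did (2.33% higher and 1.29% lower). Pax1 read 8.78, 9.45 and 9.21 in castrated TEC and 8.48, 8.15 and 6.12 in sham TEC. Grhl2 read 8.03, 8.77 and 8.36 in castrated TEC and 7.65, 7.32 and 6.20 in sham TEC. In both genes the groups did not overlap, and sham array 3, the array with raised thymocyte and fibroblast markers, lay far below the other sham arrays.

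The difference of day 4 was 1.56 ± 0.40 for Pax1 (adjusted p = 0.0374) and 1.33 ± 0.28 for Grhl2 (adjusted p = 0.0223 in limma). Without sham array 3 it was 0.83 for Pax1 (adjusted p = 0.111) and 0.90 for Grhl2 (adjusted p = 0.0742). Without the 4 arrays standing apart it was 0.46 for Pax1 (adjusted p = 0.638) and 0.54 for Grhl2 (adjusted p = 0.461). Both calls were also lost without castrated array 2 or 3 (adjusted p of 0.0855 to 0.166) and without the arrays of day 20 (0.12 for Pax1 and 0.105 for Grhl2). The second Pax1 probe differed by 0.37. Mean thymocyte markers stood at 7.40, 7.92 and 8.42 in castrated TEC and at 7.08, 7.14 and 10.11 in sham TEC of day 4.

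The other members did not pass at day 4. Elf3 differed by -0.28 (adjusted p = 0.304 in limma), and its dimmest probe, of mean level 6.61, by -1.86, while its other probe differed by 0.03. With its probes averaged Elf3 passed, at -0.70 (adjusted p = 0.0225 in limma). Trp63, Eya1, Tbx1 and Hopx had differences of 0.07, 0.10, -0.07 and -0.07. Among the linked genes, 1 of 12 Grhl2 targets and junction genes rose in castrated TEC, the splicing regulator Esrp2 at 0.98 (adjusted p = 0.023), and 1 fell, the recycling GTPase Rab25 at -0.49 (adjusted p = 0.0408). No tested gene of the pouch network, of the p63 list or of the cortical list passed at day 4. Of all genes tested 2.33% were higher and 1.29% lower in castrated TEC.

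At day 7 no member passed (0 of 7), where 0.171% of genes tested did (0.0732% higher and 0.0976% lower). Eya1 and Elf3 had an unadjusted p under 0.05 in limma. The share of all genes at that unadjusted level is not given, here or below, so such members cannot be set against it. Eya1 read 7.76, 7.68 and 7.74 in castrated TEC and 8.26, 8.54 and 8.47 in sham TEC, without overlap, at -0.69 ± 0.21 (adjusted p = 0.171 in limma). It passed without the 4 arrays standing apart (adjusted p = 0.00585) and without middle-aged array 3 alone (adjusted p = 0.0317). Elf3 read 9.80, 9.84 and 10.003 in castrated TEC and 10.31, 10.42 and 10.09 in sham TEC, also without overlap, at -0.39 ± 0.17 (adjusted p = 0.324). Hopx read 8.51, 8.61 and 8.27 in castrated TEC and 8.55, 8.24 and 4.82 in sham TEC, where array 3 set the difference of 1.26 ± 0.69 (adjusted p = 0.441).

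At day 20 Eya1, Trp63 and Grhl2 were lower in castrated than in sham TEC, each by about 1 on the log2 scale. These 3 of 7 members passed where 22.5% of genes tested did (9.4% lower and 13.1% higher). Trp63 read 11.84, 12.14 and 12.06 in castrated TEC and 13.02, 13.18 and 12.86 in sham TEC. Eya1 read 8.60, 8.75 and 8.67 in castrated TEC and 9.56, 9.88 and 9.76 in sham TEC. Arrays of a group agreed closely at this day, at correlations of 0.991 to 0.994 in castrated and 0.993 to 0.994 in sham TEC. The groups overlapped in Tbx1 and not in the other members tested, but the share of all genes without overlap is not given.

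Grhl2 read 8.31, 8.22 and 8.11 in castrated TEC of day 20 and 9.11, 9.14 and 9.23 in sham TEC. The differences were -1.06 ± 0.21 for Eya1 (adjusted p = 0.00109), -1.01 ± 0.22 for Trp63 (adjusted p = 0.00228) and -0.95 ± 0.28 for Grhl2 (adjusted p = 0.0177 in limma). The Grhl2 call was lost in 3 of 24 fits without 1 array (adjusted p of 0.051 to 0.0612), those without castrated day 20 array 3 and without sham day 20 array 2 or 3. The dimmer Eya1 probes differed by -0.19 and -0.26, and the mean of its probes did not pass (-0.50, adjusted p = 0.178).

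Pax1, Hopx and Elf3 did not pass at day 20 in the fit of all TEC arrays. Pax1 read 8.57, 8.70 and 8.33 in castrated TEC and 9.25, 9.32 and 9.37 in sham TEC (-0.78 ± 0.40, adjusted p = 0.17). Hopx read 9.93, 9.65 and 9.62 in castrated TEC and 8.53, 8.09 and 7.99 in sham TEC (1.53 ± 0.69, adjusted p = 0.119). Elf3 read 9.20, 9.11 and 9.22 in castrated TEC and 8.91, 8.83 and 8.87 in sham TEC (0.31 ± 0.17, adjusted p = 0.209). With the spread taken from the 6 arrays of day 20 only, all 3 passed, at adjusted p of 2.88e-05 for Pax1, 9.95e-08 for Hopx and 0.0231 for Elf3 in limma. Tbx1 read 6.01, 6.09 and 5.95 in castrated TEC and 5.81, 5.99 and 5.79 in sham TEC, all below the dim level (0.15 ± 0.28, adjusted p = 0.762).

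**Figure D2:**
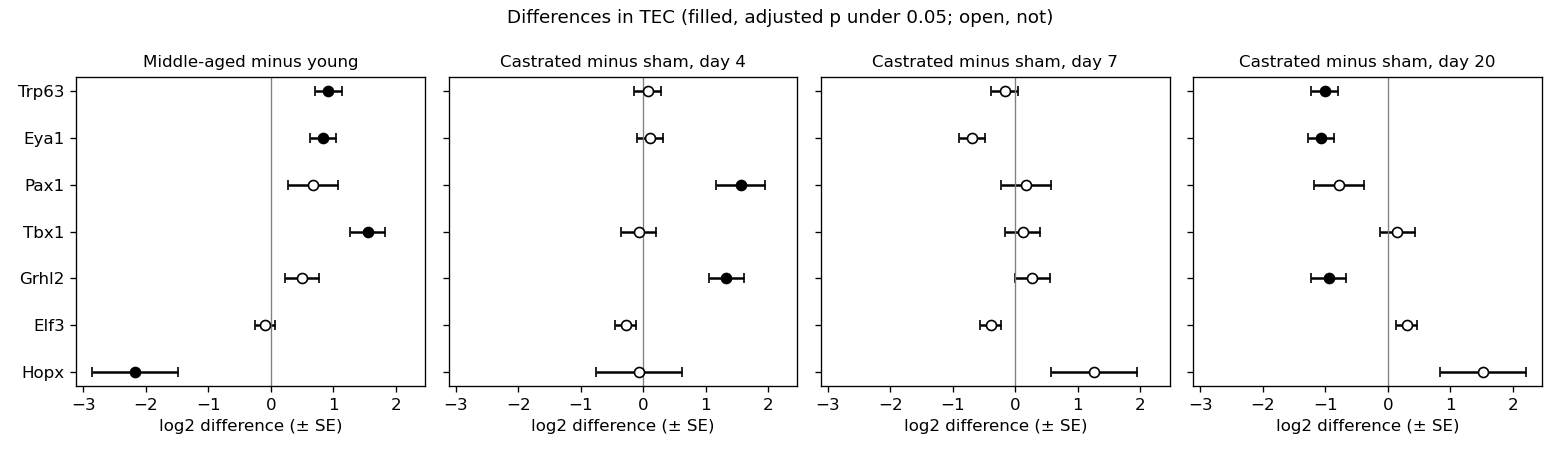
Log2 difference ± SE of each tested member in TEC for middle-aged minus young mice and for castrated minus sham mice at each day, filled where the adjusted p was under 0.05. Trp63 and Eya1 lie right of 0 for age (0.92 and 0.84) and left of 0 for castration at day 20 (-1.01 and -1.06), and Grhl2 lies right of 0 at day 4 (1.33) and left of it at day 20 (-0.95).

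Sham TEC of day 20, the control of that day, differed from the earlier sham groups. Against sham TEC of days 4 and 7, sham TEC of day 20 had 6 of 7 members past the test, where 57.8% of genes tested passed (23.7% higher and 34.1% lower). Grhl2 was higher by 1.81 ± 0.24 (adjusted p = 4.68e-06), Eya1 by 1.55 ± 0.18 (adjusted p = 1.18e-06), Trp63 by 1.41 ± 0.19 (adjusted p = 4.55e-06) and Pax1 by 1.30 ± 0.34 (adjusted p = 0.00315 in limma). Elf3 was lower, at -1.36 ± 0.15 (adjusted p = 4.84e-07), and Tbx1 was lower, at -0.84 ± 0.24 (adjusted p = 0.00598). Lists of markers for other cells moved too, against a median of -0.12 over all genes tested. Of 4 tested thymocyte markers 3 were lower in sham TEC of day 20 (median -1.85). Of 5 fibroblast markers 3 were lower and 1 higher (median -1.41), and of 4 pan-leukocyte markers 3 were lower (median -1.09). Whether the pan-leukocyte list marks leukocytes in TEC was not tested. Mean thymocyte markers lay between 6.20 and 6.66 in sham TEC of day 20 and between 7.08 and 10.11 in sham TEC of days 4 and 7, and their part in the members' changes was not tested. With all 6 TEC arrays of day 20 apart from the rest, the day after surgery and whatever else sets these arrays apart cannot be told apart.

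Set against unoperated middle-aged TEC in place of sham TEC, castrated TEC of day 20 differed by -0.12 for Trp63 (adjusted p = 0.667), 0.26 for Eya1 (adjusted p = 0.312) and 0.24 for Grhl2 (adjusted p = 0.486 in limma). Against that control Hopx was higher by 2.62 (adjusted p = 0.00393), Tbx1 lower at -1.05 (adjusted p = 0.00436) and Elf3 lower at -0.87 (adjusted p = 0.000332 in limma). In these differences castration cannot be told apart from whatever else sets the arrays of day 20 apart. Sham TEC of day 20 also lay below unoperated middle-aged TEC in Elf3 (8.87 against 10.04) and Tbx1 (5.86 against 7.07). It lay above that group in Hopx (8.21 against 7.12). Hopx stood higher in castrated TEC of day 20 than in either control, though it did not pass against sham, and its castrated mean of 9.73 was the highest of the 8 groups, above 9.28 in young TEC.

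Among genes linked to the members, the keratins and cornification genes moved most at day 20, where 13.1% of all genes tested rose and 9.4% fell. In castrated against sham TEC 9 of 11 rose and none fell (median 1.39, against -0.04 over all genes tested), Klk7, a protease of the shedding epidermis, by 2.03 (adjusted p = 0.00145) and Sprr1b, a precursor of the cornified envelope, by 1.79 (adjusted p = 0.000158). Of 12 medullary regulators 5 rose and none fell, with Aire, which drives tissue antigens in medullary cells, at 1.07 (adjusted p = 0.00138) and Fezf2, another such regulator, at 0.96 (adjusted p = 0.000103 in limma). Of 12 p63 targets and basal genes only Cdkn1a, a cell-cycle inhibitor, rose, at 0.86 (adjusted p = 0.000571). Of 12 Grhl2 targets and junction genes Ovol1 (0.79, adjusted p = 0.029) and Rab25 (0.45, adjusted p = 0.0153) rose and none fell.

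Of 9 pouch network genes 3 fell in castrated TEC of day 20, Isl1 by -1.04 (adjusted p = 0.00199), the BMP antagonist Chrd by -0.76 (adjusted p = 0.0151) and the Notch target Hes1 by -0.75 (adjusted p = 0.0322 in limma). The T-box factor Tbx3 rose by 1.02 (adjusted p = 0.0038 in limma). Of all genes tested 9.4% fell and 13.1% rose. Of 13 genes of the cortical list 2 fell, the receptor Fgfr2 by -1.11 (adjusted p = 3.14e-05) and the cytokine Il7 by -0.81 (adjusted p = 0.00967). Mean immediate early genes stood at 10.47, 10.59 and 10.36 in castrated TEC and at 11.68, 11.64 and 11.63 in sham TEC, and mean pan-leukocyte markers at 11.24, 10.98 and 11.17 in castrated TEC and at 10.11, 9.75 and 9.91 in sham TEC. Their part in the members' differences was not tested.

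The effect of castration differed between the days for 4 of 7 members by an F test over the 3 days, where 17% of genes tested passed. Grhl2 had an adjusted p of 0.00195, Pax1 of 0.0181, Eya1 of 0.0223 and Trp63 of 0.0375 in limma. With probes averaged Eya1 did not pass (adjusted p = 0.873) and Elf3 did (0.00914), and with each array centred on its median Trp63 did not pass (0.0573) and Elf3 did (0.0461). Between day 20 and day 4 the difference changed by -2.28 ± 0.39 in Grhl2, -2.34 ± 0.56 in Pax1, -1.17 ± 0.29 in Eya1 and -1.08 ± 0.31 in Trp63. No member passed between day 7 and day 4 or between day 20 and day 7, the nearest being Grhl2 at -1.22 ± 0.39 between day 20 and day 7 (adjusted p = 0.0603). The Trp63 call was lost in 11 of 24 fits without 1 array, 6 of them fits without an array of day 20, and the Eya1 call in 4, among them that without sham day 4 array 3.

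Averaged over the days only Eya1 passed, with a mean of 8.15 in castrated and 8.70 in sham TEC (-0.55 ± 0.12, adjusted p = 0.00917 in limma), where 10.8% of genes tested passed (5.87% higher and 4.95% lower). With probes averaged the Eya1 call was lost (-0.36, adjusted p = 0.121) and Elf3 passed (-0.33, adjusted p = 0.0282). Trp63 stood at -0.37 ± 0.12 (adjusted p = 0.063) and Hopx at 0.91 ± 0.40 (adjusted p = 0.139 in limma). Sham TEC averaged over the days against unoperated middle-aged TEC showed no member past the test, where 5.58% of genes tested passed (1.87% higher and 3.71% lower), and the nearest was Tbx1 at -0.64 ± 0.23 (adjusted p = 0.0891), the 1 member with an unadjusted p under 0.05 in limma.

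The 8 group means of each member are given in order, as a description only. Neighbours come from sorting these same means of 3 arrays each. The share of all genes with neighbours parted in this way is not given, so the members cannot be set against it. Trp63 ran over a span of 1.81, with sham day 20 highest, then middle-aged, castrated day 20, sham day 7, castrated day 4, sham day 4, castrated day 7, and young lowest. Only the highest and the lowest group were parted from their neighbours in this order without overlap of arrays. Eya1 ran over 2.16 with castrated day 20 in the second place, and its top 2 groups and its lowest, young TEC, were each parted from the next. Hopx ran over 2.62, with castrated day 20 and then young TEC parted from the other 6 groups, whose neighbours overlapped. Elf3 ran over 1.40, with 6 overlapping groups above castrated day 20 and then sham day 20. Tbx1 ran over 1.55, with 5 overlapping groups above castrated and sham day 20, and young TEC below them. In Pax1 and Grhl2 only 1 of 7 neighbouring pairs did not overlap, that below sham day 7 in Pax1 and that below sham day 20 in Grhl2.

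Some members varied together across the 24 TEC arrays, given here as a description, since arrays share groups and normalization. Trp63 and Eya1 had a Pearson correlation of 0.94 over all arrays and 0.81 over the 18 without day 20. Pax1 and Grhl2 had 0.88 over all arrays and 0.93 without day 20. Trp63 and Elf3 ran opposite at -0.79 over all arrays and -0.43 without day 20, and Trp63 and Hopx at -0.26 over all arrays and -0.73 without day 20. The correlations of Grhl2 with Trp63 (0.63) and with Eya1 (0.64) were 0.12 and 0.09 without day 20.

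The tested genes most like each member over the 24 TEC arrays, by Pearson correlation, were these. Fbxo10 (0.959), Gprc5b (0.951) and Tns3 (0.949) lay nearest to Trp63. Isl1 (0.968), Stt3b (0.943) and Gprc5b (0.939) lay nearest to Eya1. Rnf103 (0.952), Cxadr (0.925) and Ctnnd2 (0.903) lay nearest to Pax1, and Epc1 (0.912), Man2a2 (0.888) and Pax1 (0.884) nearest to Grhl2. Aqp5 (0.919), Slc1a1 (0.906) and Rasal1 (0.867) lay nearest to Tbx1. Cript (0.968), Cmtm4 (0.967) and Abhd2 (0.961) lay nearest to Elf3, and Cxcl13 (0.947), Atf5 (0.929) and Uck2 (0.88) nearest to Hopx. Without day 20 the Elf3 partners kept 0.809, 0.82 and 0.759, while the partners of Hopx kept 0.933, 0.927 and 0.875.

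Pax1, Eya1 and Elf3 had more than 1 probe in TEC, which did not always move together. Pax1 probes had mean levels of 8.56 and 6.45 and shared a sign at age and at every day, with -0.78 and -0.66 at day 20. Elf3 probes had mean levels of 9.81, 7.59 and 6.61, and at day 20 they differed by 0.31, -0.09 and 0.56. Eya1 probes had mean levels of 8.32, 5.63 and 5.19, the dimmer 2 with every group mean below the dim level, and at day 4 they differed by 0.10, -0.65 and -0.31.

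**Figure D3:**
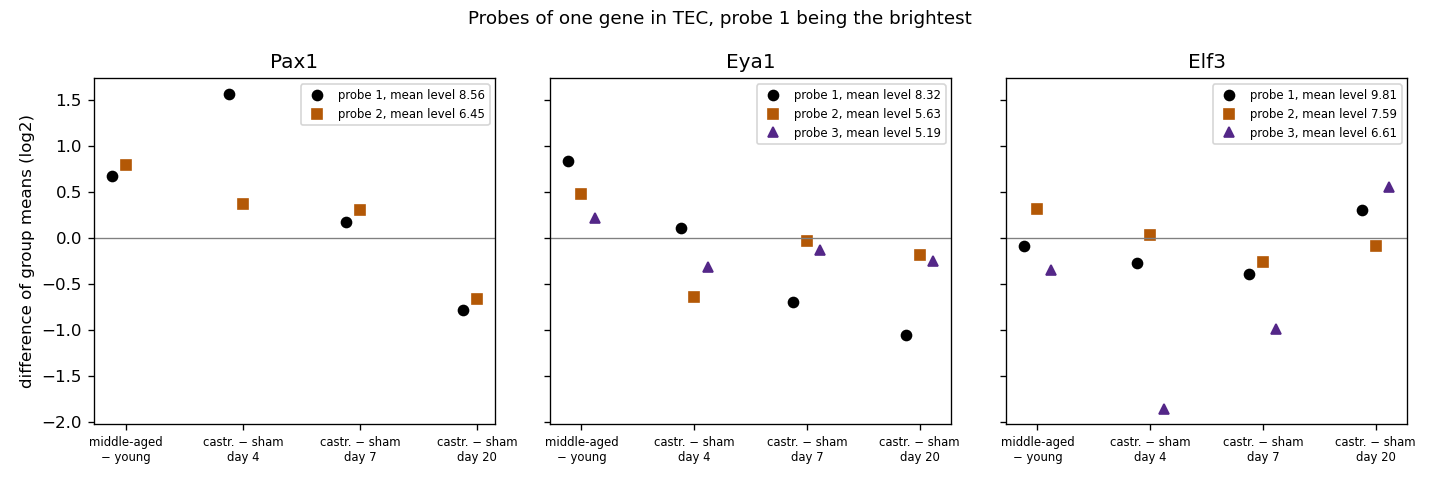
Log2 differences of group means in TEC for each probe of the members with several probes, with the mean level of each probe in the legend. The brightest Eya1 probe shows the widest differences at age (0.84) and day 20 (-1.06), and the dimmest Elf3 probe falls to -1.86 at day 4 where the other Elf3 probes lie at -0.28 and 0.03.

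In nonTEC only Trp63 and Hopx were bright enough to test. Pax1, Eya1 and Elf3 were too dim there, with highest group means of 5.03, 5.29 and 5.42, and Tbx1, Grhl2 and Foxn1 had no value. Hopx read 6.93, 7.37 and 7.95 in middle-aged nonTEC and 8.09, 8.04 and 8.04 in young nonTEC. The groups did not overlap, and the difference was -0.64 ± 0.21 (adjusted p = 0.0254 in limma), so that 1 of 2 members passed where 32.4% of 7771 genes did (16.8% higher and 15.5% lower). The call was lost in 5 of 17 fits without 1 array, those without middle-aged array 1 (-0.40, adjusted p = 0.143) or 2 or without any 1 of the young arrays, and with the spread taken from the compared arrays only (adjusted p = 0.0984). All 4 tested pan-leukocyte markers (median -2.43), all 6 thymocyte markers (median -1.57) and all 10 cell cycle genes (median -1.48) were also lower in middle-aged nonTEC, against a median of 0.02 over all genes tested. Mean pan-leukocyte markers stood at 6.63, 7.01 and 7.34 in middle-aged nonTEC and at 8.61, 8.62 and 8.85 in young nonTEC, and their part in the fall of Hopx was not tested.

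Trp63 read 7.89, 8.03 and 8.004 in middle-aged nonTEC and 7.94, 7.77 and 8.17 in young nonTEC, with no difference beyond the spread (0.01 ± 0.16, adjusted p = 0.955 in limma). With the sham nonTEC averaged over the days in place of unoperated middle-aged nonTEC it was -0.71 (adjusted p = 0.00133). At day 4 neither gene passed, where 6.31% of genes tested did (2.65% higher and 3.65% lower), and 0 of 2 had an unadjusted p under 0.05 in limma: Trp63 differed by 0.09 and Hopx by 0.19. At day 7 neither passed, where 0.438% of genes tested did (0.0515% higher and 0.386% lower), and Trp63 alone had an unadjusted p under 0.05 in limma. Trp63 read 7.88, 7.74 and 7.69 in castrated nonTEC of day 7 and 7.42 and 7.10 in sham nonTEC, without overlap (0.51 ± 0.18, adjusted p = 0.247), and Hopx differed by 0.24 ± 0.23 (adjusted p = 0.821 in limma).

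Between the fractions, 4 of 5 members measured in both were higher in TEC than in nonTEC of unoperated mice, where 76.7% of 8487 genes passed (29.3% higher in TEC and 47.4% lower). The fractions were normalized separately, so that these differences also hold the unequal scales, and the median over all genes tested was -0.26. Elf3 averaged 10.09 in TEC and 5.30 in nonTEC (4.79 ± 0.13, adjusted p = 2.05e-24). Trp63 averaged 11.67 in TEC and 7.97 in nonTEC (3.70 ± 0.14, adjusted p = 1.46e-21 in limma). Eya1 averaged 7.995 in TEC and 5.05 in nonTEC (2.94 ± 0.14, adjusted p = 2.46e-18).

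Pax1, read here from its second probe because only that had values in both fractions, averaged 6.15 in TEC and 4.78 in nonTEC (1.37 ± 0.15, adjusted p = 8.25e-10 in limma). The means of this Pax1 probe were below the dim level in the TEC groups compared too. It passed the filter only through TEC of day 20 (7.63 in sham, 6.97 in castrated), which is not compared here. Elf3, Eya1 and Pax1 were too dim in nonTEC and passed the filter through TEC only, so the filter favoured a higher value in TEC. The count of 4 of 5 is thus no support for a difference. The differences of Elf3, Eya1 and Pax1 rest on values near the floor and may be understated. Hopx averaged 8.20 in TEC and 7.74 in nonTEC and did not pass (0.46 ± 0.40, adjusted p = 0.287), with wide spread in middle-aged TEC. Among linked genes, all 7 tested Grhl2 targets and junction genes and all 10 keratins and cornification genes were higher in TEC, as were 10 of 11 p63 targets and basal genes with 1 lower. Of 9 pouch network genes 2 were higher in TEC, Wnt4 by 4.77 and Isl1 by 4.66. In the same list 6 were lower, among them Bmp4 at -4.71 (adjusted p = 1.45e-19 in limma). Of all genes tested 29.3% were higher in TEC and 47.4% lower.

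**Figure D4:**
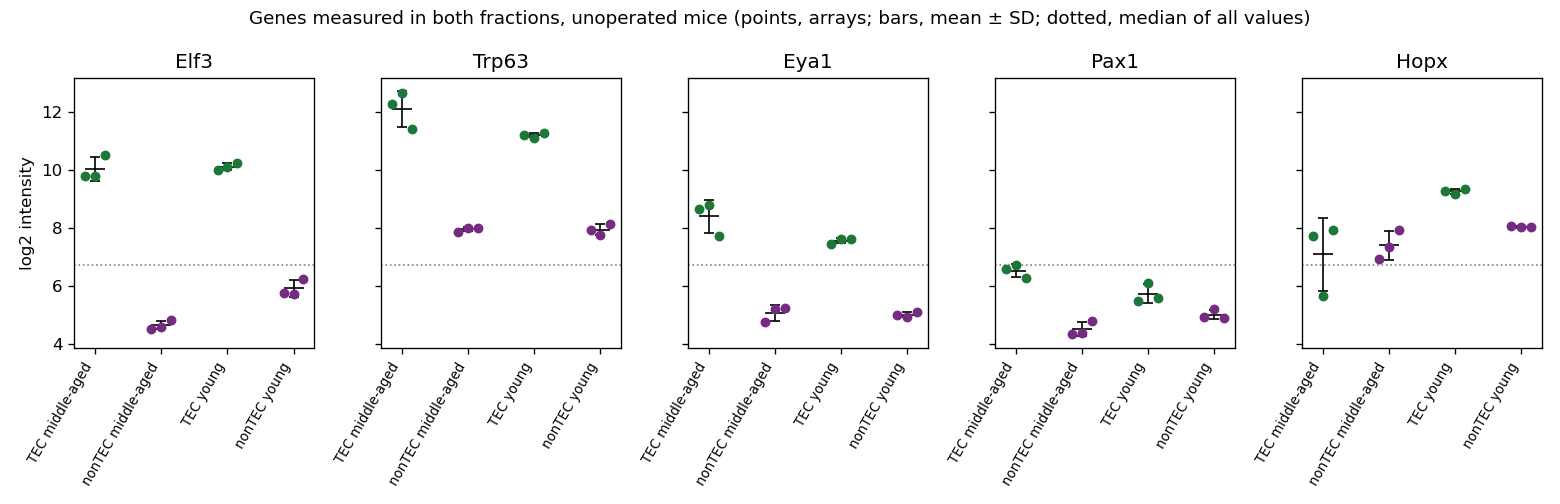
Log2 intensity in TEC and nonTEC of unoperated middle-aged and young mice for the 5 members measured in both fractions (points, arrays; bars, mean ± SD, n = 3; dotted line, 6.73). Elf3, Trp63, Eya1 and Pax1 lie higher in TEC, while Hopx of middle-aged TEC (mean 7.12) overlaps nonTEC.

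The effect of age differed between the fractions for 3 of these 5 members, where 11.2% of genes tested passed (7.78% with the higher value in TEC and 3.45% with the lower). Trp63 differed with age by 0.92 in TEC and 0.01 in nonTEC (0.90 ± 0.27, adjusted p = 0.0291 in limma), and the call was lost in 5 of 41 fits without 1 array (adjusted p of 0.0531 to 0.11). Elf3 differed by -0.09 in TEC and -1.27 in nonTEC (1.18 ± 0.27, adjusted p = 0.00405), and Pax1 by 0.79 in TEC and -0.50 in nonTEC (1.29 ± 0.30, adjusted p = 0.00465), both on probes below the dim level in nonTEC. The Pax1 probe was below it in TEC as well, with means of 6.54 in middle-aged and 5.75 in young TEC, so that all 4 Pax1 means were dim. With only the arrays compared none of the 3 passed, at adjusted p of 0.227 for Trp63, 0.101 for Elf3 and 0.07 for Pax1, and with each array centred on its median Trp63 did not pass (0.0539). The Elf3 probe used for both fractions read 4.55, 4.62 and 4.84 in middle-aged nonTEC and 5.78, 5.75 and 6.27 in young nonTEC. Another Elf3 probe, the one of highest mean in nonTEC, differed with age by -0.08 there and by 0.31 in TEC. The mean of the Elf3 probes did not pass (0.78, adjusted p = 0.0633 in limma). Mean thymocyte markers stood at 6.64, 7.24 and 7.50 in middle-aged nonTEC and at 8.09, 8.16 and 8.93 in young nonTEC, and their part in this was not tested. Eya1 (0.77, adjusted p = 0.0806) and Hopx (-1.52, adjusted p = 0.215) did not pass.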

How the data were processed

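Per the labels' protocols, RNA of sorted TEC and nonTEC was purified with Qiagen kits and biotin-labelled with an Ambion kit for Illumina arrays. The authors' deposited values are normalized log2 intensities; the log base is not stated and was taken as 2. Values of TEC (21242 probes) and of nonTEC (21815 probes) have different quantiles, from which it was read that each fraction was normalized separately. The submitters' processing notes name limma with no version or role. For background correction and detection filtering, the sources used here give no method. No scanner files were used, so detection could not be read from them, and the number of arrays limits the precision.

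Of 24671 probes, 20825 with 1 listed gene (platform annotation) were used, 11 had several genes and 3835 had none listed; 20799 of the IDs were in the RefSeq table. Each gene was read from its probe of highest mean in the arrays fitted, which can differ between fractions. A gene was tested where 1 group mean exceeded 6.73, the median of all values, which kept 8195 TEC genes (of 12176), 7771 nonTEC genes (of 11704) and, for fits over all arrays, 8487 (of 10543). Group means were fitted with limma 3.58.1 (R 4.3.3), lmFit and eBayes with a trend, over the 24 TEC arrays (16 residual degrees of freedom), the 17 nonTEC arrays (11) or all 41 (27). The 13 comparisons were contrasts of these means, adjusted by the Benjamini-Hochberg method over all genes tested, at a threshold of 0.05. No array was left out and no pair of arrays was identical. The steps were tested on simulated data.

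All members are named; likeness is Pearson's r with every tested gene in TEC, of which the nearest 3 are named, leaving out clone names and uncharacterised loci; of each of 14 gene lists the counts and up to 4 members of smallest adjusted p were taken. The members and lists were chosen with earlier results of these data known. The alternatives were no filter or a stricter filter (7.84, the 65th percentile), quantile normalization, median centring, the mean of all probes, array weights, no trend, only the arrays compared, all 41 arrays, a replicate block, other controls, and leaving out each array. Replicate numbers of the labels are not said to pair arrays. Promoters are RefSeq's, build GRCm38.p6, matched by symbol for 6 of 9 members. Figures were drawn with matplotlib 3.10.9.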

Additional observations from a re-analysis of the deposited data

Results flagged for a closer look

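The effect of castration in TEC differed between days 4, 7 and 20 by the F test of the difference itself (limma, adjusted over all genes tested) for Grhl2 (adjusted p = 0.00195), Pax1 (0.0181), Eya1 (0.0223) and Trp63 (0.0375). In Grhl2 and Pax1 castrated TEC lay above sham TEC at day 4, by 1.33 and 1.56. They lay below it at day 20, at -0.95 and -0.78, though Pax1 did not pass there. Without sham day 4 array 3 the day 4 differences were 0.90 (adjusted p = 0.0742) and 0.83 (adjusted p = 0.111 in limma). Without the 4 arrays standing apart they were 0.54 (adjusted p = 0.461) and 0.46 (adjusted p = 0.638 in limma). The Trp63 call between days was lost in 11 of 24 fits without 1 array. All TEC arrays of day 20 stood apart from the rest. With probes averaged Eya1 did not pass between days (adjusted p = 0.873 in limma).

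The effect of age differed between TEC and nonTEC, by the interaction in the fit of 41 arrays, for Elf3 (adjusted p = 0.00405), Pax1 (0.00465) and Trp63 (0.0291). For Elf3 the nonTEC means lie below the level taken as dim, and for Pax1 the means of both fractions do. The Elf3 probe of highest mean in nonTEC, not the one used here, differed with age by -0.08 there and by 0.31 in TEC. None of the 3 passed with only the arrays compared (adjusted p of 0.101, 0.07 and 0.227 for Elf3, Pax1 and Trp63). The causes of these differences were not tested.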

How the results depend on the processing

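Counts of members past the threshold held within 1.5 times in 131 refits of the 13 comparisons and moved further in 22 (leaving out single arrays apart). Of the members' own values 774 kept their call, 38 gained a call, 31 lost it and 9 reversed sign with a call in at least 1 fit. A value without a call in either fit could change sign and still count as kept. Elf3 for ageing in TEC, at -0.33 to 0.03 without single arrays, was labelled unchanged in all 24 such fits. With array weights the counts were 7 for ageing in TEC, 3 at day 7 in TEC, 6 at day 20, 2 averaged over days and 1 at day 7 in nonTEC. With only the arrays compared they were 0 for ageing in TEC, at day 4 in TEC, for ageing in nonTEC and for the ageing difference between fractions, 6 at day 20 and 2 averaged over days. With all 41 arrays in 1 fit they were 0 for ageing in nonTEC and 2 averaged over days. Without the 4 arrays standing apart they were 0, 1 and 5 at days 4, 7 and 20 in TEC, and without the day 20 arrays 0 at day 4, both settings being chosen after seeing the data. With sham averaged over days as control they were 1 at day 4 and 1 at day 7 in TEC; with unoperated controls 0 at day 4 in TEC and 1 in nonTEC; with sham in place of unoperated mice 2 for ageing in nonTEC. Reversed values, against sham averaged over days, were Eya1 at day 4 (-0.65), and Elf3 (-0.60) and Grhl2 (0.26) at day 20; against unoperated TEC at day 20 they were Elf3 (-0.87), Eya1 (0.26), Grhl2 (0.24) and Tbx1 (-1.05). In nonTEC, Trp63 was -0.63 against unoperated mice at day 4 and -0.71 for ageing with sham in place. The cause was not tested. Leaving out 1 array at a time gave 2 to 5 members for ageing in TEC, 0 to 2 at day 4, 0 to 1 at day 7, 2 to 4 at day 20, 1 to 2 averaged over days, 2 to 5 between days, 0 to 1 for sham against unoperated, 6 to 6 for sham day 20, 0 to 1 for ageing in nonTEC, 0 to 0 at days 4 and 7 in nonTEC, 4 to 5 between fractions and 2 to 4 for the ageing difference. Over all genes, calls in TEC ranged from 8 to 3188 for ageing (1542 as reported), 0 to 2314 at day 4 (297), 0 to 2275 at day 7 (14), 1420 to 4299 at day 20 (1841), 738 to 3330 averaged over days (887), 1099 to 5103 between days (1393) and 5 to 1758 for sham against unoperated (457), the highest all with array weights. They ranged in nonTEC from 1316 to 2806 for ageing (2516), 301 to 1856 at day 4 (490) and 24 to 975 at day 7 (34), and over both fractions from 114 to 1727 for the ageing difference (953). Same-numbered arrays deviated together with a median correlation of 0.051 in TEC (from -0.439 to 0.729) and -0.027 in nonTEC. Arrays of different numbers had medians of -0.036 in TEC and 0.012 in nonTEC. Deviations from means of 2 or 3 arrays are tied to each other, so these values cannot decide whether the numbers pair arrays. With the replicate number as a block the members called were 4 for ageing, 2, 0 and 3 at days 4, 7 and 20 in TEC and 5 between fractions, where Hopx was added (1.07, adjusted p = 0.0446 in limma). Detection on the arrays could not be read, so Foxn1 and the dim nonTEC values have no order; without the filter Foxn1 stood at -0.44 for ageing (adjusted p = 0.213) and 0.33 for castration at day 20 (adjusted p = 0.37), and passed only for sham day 20 against days 4 and 7 (0.72, adjusted p = 0.00578 in limma), all on values below the dim level.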
